A study of Mus musculus with 19 samples.

Results

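The liver genes of the urea cycle and of ammonia handling were followed through whole livers of 19 adult mice, 1 RNA sequencing library per mouse. The 10 genes were taken by symbol from the deposited tables: Cps1, Otc, Ass1, Asl, Arg1, Nags, Glul, Gls2, Slc25a15 and Oat, 10 of the 24192 genes in those tables. All 10 were found, and all 10 passed the filter on low counts in every comparison. Control mice on a low fat diet (LF-C, n = 4) and control mice fed fructose and cholesterol together with high fat (HF-C, n = 5) stood beside mice labelled as lacking PPARγ in hepatocytes on the same diets (LF-KO, n = 4, and HF-KO, n = 6). PPARγ, a lipid-activated transcription factor, drives genes of fat uptake and storage. The labels place the knockout before the HF feeding of 24 weeks and describe the LF livers as healthy and the HF livers as steatohepatitis, a fatty liver with inflammation. The strain, the sex, the exact age, the floxed allele, the inducing agent and the removed exons are not stated in the labels.

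The urea cycle turns ammonia, which is toxic, into urea for excretion. Its opening steps run in the mitochondria and its later steps in the cytosol of hepatocytes, with most activity in cells near the portal vein. Ammonia that escapes these cells is caught as glutamine by a narrow rim of hepatocytes around the central vein, and glutaminase upstream returns ammonia from glutamine to the cycle. The genes are known to answer to protein intake, glucagon and glucocorticoids, and low activity of the cycle has been described in fatty liver disease.

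Counted fragments per library ranged from 11437875 to 20711869, and the 10 genes together took 0.707% to 1.31% of them. Hepatocyte markers (Alb, Ttr, Apoa1, Apob, Serpina1c, Fgb and Ahsg) were abundant in every library, with a summed level of 46286 to 211366 CPM (counts relative to the scaled library total). The library LF-C-2 stood apart. Its TMM factor, the scaling that compares libraries on their shared genes, was 0.611, against 0.858 to 1.22 in the others. Its 10 most abundant genes took 25.5% of its counts, against 14.6% to 20.2% elsewhere, and its mitochondrial genes took 1.64%, against 4.02% to 5.92%. The deviation of a gene from its mean over the libraries of the same group also ran with gene length. Spearman's rho over 14391 genes was -0.468 in LF-C-2, close to -0.427 in HF-KO-2, and reached 0.447 in LF-C-3. LF-C-2 had the lowest value of all libraries, by a small margin. The mean of a group includes the library itself, so values within a group depend on each other. Results that rest on this library are given with and without it. The Pparg transcript was more abundant in the KO-labelled HF livers than in their controls (47.1 to 107 CPM in HF-KO, 20.6 to 31.4 in HF-C), so the genotype of a library is known here from its label alone.

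Upstream sequence was available from RefSeq (GRCm38.p6) for 6 of the 10 genes, Otc, Ass1, Nags, Glul, Slc25a15 and Oat. The windows of Otc, Ass1 and Slc25a15 are shown because these genes fell on the HF diet in control mice, that of Glul because it did not, and that of Nags because it held the only motif match. Each window ends at the base before the transcription start, that of Ass1 at the base before the deposited gene start. All are printed 5′ to 3′ on the strand of the gene. The window of Ass1 has 187 bases, since the deposited gene starts upstream of the RefSeq start, and the others have 250.
Nags (chr11:102145263-102145512, + strand): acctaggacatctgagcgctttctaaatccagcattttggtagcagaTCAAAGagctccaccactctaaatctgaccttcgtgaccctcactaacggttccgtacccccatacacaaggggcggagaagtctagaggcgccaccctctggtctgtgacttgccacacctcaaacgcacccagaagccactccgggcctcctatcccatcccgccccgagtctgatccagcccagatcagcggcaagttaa
Otc (chrX:10252055-10252304, + strand): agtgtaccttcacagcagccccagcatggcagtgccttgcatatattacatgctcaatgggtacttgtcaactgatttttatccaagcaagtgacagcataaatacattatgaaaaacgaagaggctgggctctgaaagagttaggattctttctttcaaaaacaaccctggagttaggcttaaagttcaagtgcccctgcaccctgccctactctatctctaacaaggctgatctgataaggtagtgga
Ass1 (chr2:31470020-31470206, + strand): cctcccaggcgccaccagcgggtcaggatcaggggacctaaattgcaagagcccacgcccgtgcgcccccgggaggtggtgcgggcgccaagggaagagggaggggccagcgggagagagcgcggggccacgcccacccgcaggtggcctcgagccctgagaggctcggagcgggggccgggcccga
Slc25a15 (chr8:22398622-22398871, - strand): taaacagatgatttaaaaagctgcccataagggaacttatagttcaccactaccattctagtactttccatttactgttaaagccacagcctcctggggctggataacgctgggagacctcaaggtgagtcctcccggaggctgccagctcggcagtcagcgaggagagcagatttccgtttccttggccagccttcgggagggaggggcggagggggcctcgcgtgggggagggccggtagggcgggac
Glul (chr1:153899679-153899928, + strand): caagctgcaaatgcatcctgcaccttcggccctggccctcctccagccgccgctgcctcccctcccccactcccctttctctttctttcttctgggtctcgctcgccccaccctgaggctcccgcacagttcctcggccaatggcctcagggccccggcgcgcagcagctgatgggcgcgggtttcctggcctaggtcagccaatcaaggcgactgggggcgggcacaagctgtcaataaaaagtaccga
The capitals in Nags mark TCAAAG, the reverse complement of the TCF motif CTTTGA, 203 bases upstream of the start. The other motifs searched on both strands were C/EBP (TTGCNNAA), the CRE half-site (TGACG), the glucocorticoid half-site (AGAACA) and HNF4 (CAAAGTCCA), and none of these letters occurred in the 6 windows. Over all 32851 mouse windows of 250 bases, CTTTGA occurred in 13.8%, TGACG in 17.8%, AGAACA in 16.1%, TTGCNNAA in 9.56% and CAAAGTCCA in 0.384%, so a window without a match is common. For windows of 187 bases the shares were 11.2%, 11.4%, 12.5%, 7.69% and 0.277%. The windows differed in base composition: G and C made up 75.4% of the Ass1 window, 64.8% of Glul, 57.6% of Slc25a15, 55.6% of Nags and 43.6% of Otc, where all windows had a median of 52.4%. The CpG dinucleotide occurred 18 times in the Ass1 window and 1 time in that of Otc, 2 genes that both fell on the HF diet. Asl, Arg1 and Gls2, which also fell, had no window. A part of CpG content in the falls was not tested.

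Levels below are CPM scaled with TMM factors over all 19 libraries, given by library in the order of the labels. Group values carry the SD, and log2 fold changes the SE, from edgeR's quasi-likelihood test with Benjamini-Hochberg adjustment over all genes of a comparison. Calls were made below an adjusted p of 0.05.

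Nags makes N-acetylglutamate, without which Cps1 is inactive (ENSMUSG00000048217, chromosome 11, 102145513 to 102149477). Its level was 93.1, 168, 50.7 and 57.5 CPM in LF-C, 58.8, 56.6, 75.3 and 64.9 in LF-KO, and 42.7, 48.1, 56.0, 44.9 and 41.1 in HF-C. In HF-KO it ranged from 39.5 to 56.1 with a median of 47.2. LF-C-2 was the highest of all libraries, and every LF-KO library lay above every HF-KO library. The HF-C over LF-C difference was -0.98 ± 0.32 (adjusted p = 0.0540, not called), and without LF-C-2 it was -0.56, again not called.

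Cps1 joins ammonia and bicarbonate into carbamoyl phosphate and opens the cycle in the mitochondria (ENSMUSG00000025991, chromosome 1, 67123026 to 67231259). It stood at 2195, 1206, 3466 and 3951 CPM in LF-C, at 2254, 2379.6, 3147 and 3910.4 in LF-KO, and at 1465, 1382, 1708, 982 and 1281 in HF-C. HF-KO libraries ran from 1342 to 2451 with a median of 2118. HF-C lay below both LF groups except for LF-C-2, and 5 of the 6 HF-KO libraries lay above every HF-C library. HF-C was lower than LF-C by -0.99 ± 0.32 (adjusted p = 0.0535), which was not called, while leaving out LF-C-2 gave -1.26 (adjusted p = 0.00111). Over its 18 alternatives this difference ranged from -1.26 to -0.65, with adjusted p from 0.00111 to 0.254.

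Otc makes citrulline from carbamoyl phosphate and ornithine (ENSMUSG00000031173, chromosome X, 10252305 to 10321024). Levels were close together in LF-C, at 499, 461, 471 and 484 CPM, and wider in LF-KO, at 396, 555, 582 and 519. HF-C held 285, 280.1, 388, 304 and 232 CPM, and HF-KO ranged from 319.8 to 614 with a median of 369. No HF-C library reached an LF-C library. Otc fell in HF-C by 0.68 ± 0.17 on the log2 scale (adjusted p = 0.0180). Otc was no longer called without LF-C-1 (adjusted p = 0.0503), HF-C-1 (0.0562), HF-C-5 (0.0505) or HF-C-2 (0.0556) and with scaling by library size alone (log2 -0.27, adjusted p = 0.307), and without LF-C-2 it stood at -0.73 (0.00591). With a block for replicate number Otc was also not called (-0.62, adjusted p = 0.150).

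Ass1 condenses citrulline with aspartate, the step that brings in the other nitrogen of urea (ENSMUSG00000076441, chromosome 2, 31470207 to 31520672). It was the most abundant of the 10 transcripts per length, with a median of 2315 FPKM (fragments relative to gene length and library total) in LF-C. In CPM it stood at 4602, 6392, 4159 and 3691 in LF-C, at 2720.3, 3499, 4963 and 3501 in LF-KO, at 1733, 1737, 2385, 1439 and 1742 in HF-C, and from 1808 to 3167 in HF-KO with a median of 2434. Every HF-C library lay below every library of either LF group. The log2 difference in HF-C was -1.38 ± 0.21 (adjusted p = 0.00201), and it was called in all 18 alternatives with values from -1.50 to -0.91.

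Asl splits argininosuccinate into arginine and fumarate (ENSMUSG00000025533, chromosome 5, 130011258 to 130025132). LF-C libraries held 803, 1651, 489 and 701 CPM, LF-KO libraries 425, 515, 994 and 868, and HF-C libraries 198, 239, 296, 217 and 183. HF-KO ranged from 256 to 403 with a median of 284. Both HF groups lay wholly below both LF groups. Asl had the deepest fall of the 10 genes in HF-C, with a log2 difference of -2.01 ± 0.32 (adjusted p = 0.00235), and of -1.58 (adjusted p = 0.000155) without LF-C-2, its highest library. It fell in HF-KO against LF-KO by 1.18 ± 0.24 (adjusted p = 0.0199).

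Arg1 releases urea from arginine and returns ornithine (ENSMUSG00000019987, chromosome 10, 24915208 to 24927470). Its level was 1484, 932, 1381 and 1414 CPM in LF-C, 1179, 1382, 2229.7 and 1555 in LF-KO, and 743, 781, 903, 639 and 681 in HF-C. HF-KO ranged from 768 to 1553 with a median of 867. The HF-C libraries lay below all LF libraries, though the highest of them, 903, was close to LF-C-2. The log2 difference in HF-C was -0.80 ± 0.18 (adjusted p = 0.0142), and -0.96 (adjusted p = 0.000586) without LF-C-2. It was not called with scaling by library size alone (-0.41, adjusted p = 0.233) or with an offset for gene length (-0.66, adjusted p = 0.0738). A block for replicate number also lost the call, without the offset (-0.75, adjusted p = 0.135) and with it (-0.55, adjusted p = 0.261).

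Slc25a15 carries ornithine into the mitochondria in exchange for citrulline (ENSMUSG00000031482, chromosome 8, 22375554 to 22398621). LF-C held 283, 351, 414 and 332 CPM, LF-KO 308, 402, 388 and 336, and HF-C 223, 223, 226, 171 and 202. In HF-KO the range was 230.5 to 305 with a median of 252. Every HF-KO library lay above every HF-C library and below every LF-KO library. It fell in HF-C by 0.72 ± 0.16 on the log2 scale (adjusted p = 0.0121). This call was lost with scaling by library size alone (-0.31, adjusted p = 0.275) and with a block for replicate number (-0.70, adjusted p = 0.117).

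Oat moves an amino group from ornithine toward glutamate and proline, and in liver it is found with Glul around the central vein (ENSMUSG00000030934, chromosome 7, 132557475 to 132576398). LF-C libraries were scattered, at 561, 388, 579 and 1142 CPM, while LF-KO held 753, 749, 946 and 822. HF-C held 497, 534, 617, 603 and 385, and HF-KO ranged from 478 to 768 with a median of 726. The HF-C over LF-C difference was -0.34 ± 0.29 (adjusted p = 0.439), and it turned to 0.048 without LF-C-4 and to 0.00932 with scaling by library size alone, so no direction is given. Oat shares part of its span with the fibroblast growth factor receptor gene Fgfr2 on the same strand (mean count 590).

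Glul, glutamine synthetase, fixes ammonia onto glutamate (ENSMUSG00000026473, chromosome 1, 153899944 to 153909723). It stood at 1256, 940.2, 1077 and 1511 CPM in LF-C, at 1331, 1242, 1142 and 1332 in LF-KO, and at 1259, 1673, 1362, 1899 and 1305 in HF-C. HF-KO ranged from 959.8 to 1488 with a median of 1274. All 4 groups overlapped. Glul was the only one of the 10 genes with a positive HF-C over LF-C difference, 0.33 ± 0.20 (adjusted p = 0.276, not called), and it was 0.20 to 0.72 over its 18 alternatives.

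Gls2, the liver glutaminase, frees ammonia from glutamine in cells near the portal vein (ENSMUSG00000044005, chromosome 10, 128194457 to 128210004). LF-C held 583, 496, 489 and 419 CPM, LF-KO 377, 368, 532 and 433, and HF-C 180.0, 179.9, 245, 118 and 162. HF-KO ranged from 171 to 297 with a median of 234. As with Asl, both HF groups lay wholly below both LF groups. The log2 difference was -1.49 ± 0.21 in HF-C against LF-C (adjusted p = 0.00131) and -0.84 ± 0.17 in HF-KO against LF-KO (adjusted p = 0.0202). Gls2 overlaps Spryd4 on the opposite strand (mean count 424), and the libraries carry no strand.

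**Figure D1:**
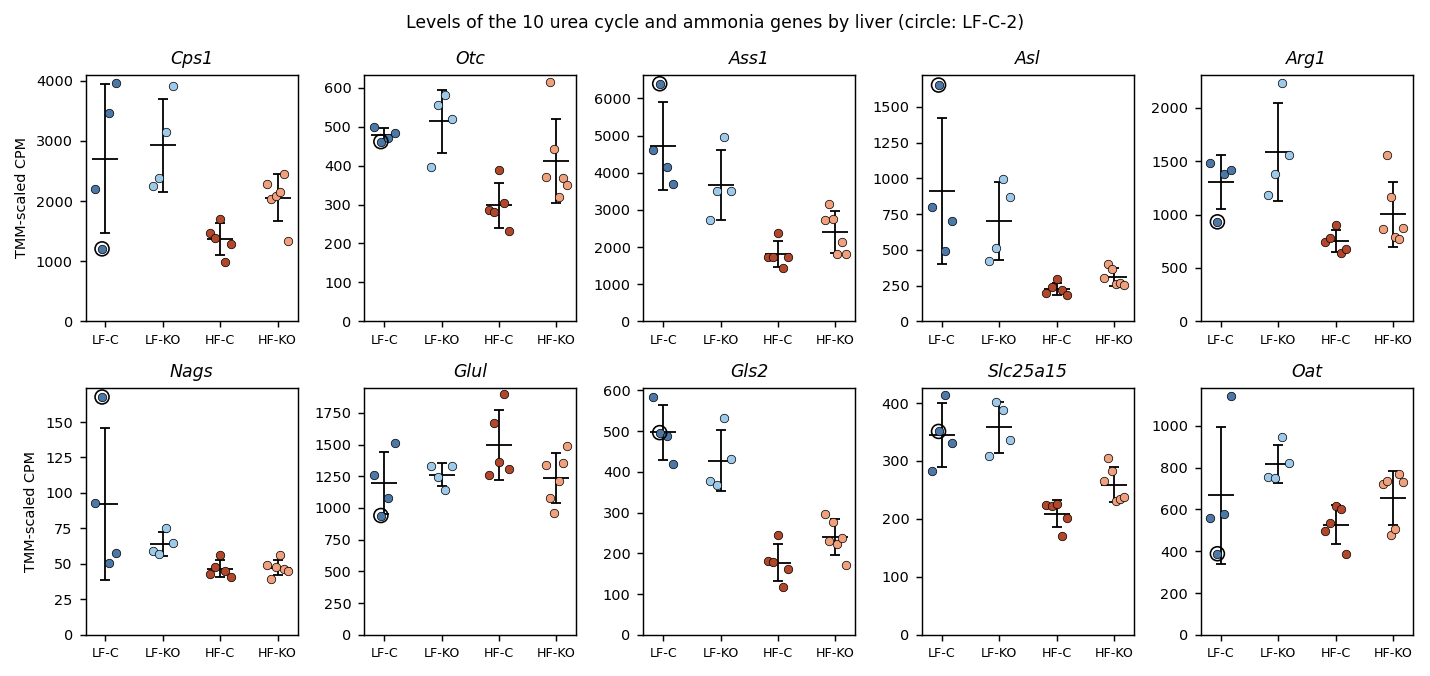
TMM-scaled CPM of the 10 genes (y axis, linear from 0) in LF-C (n = 4), LF-KO (n = 4), HF-C (n = 5) and HF-KO (n = 6), with 1 point per liver, bars for mean ± SD and a circle around LF-C-2. Gls2 and Asl show both HF groups below both LF groups (Gls2 at 118 to 297 CPM against 368 to 583), while Glul overlaps across all 4 groups.

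By group mean, 5 genes had the order LF-KO, LF-C, HF-KO, HF-C from high to low (Cps1, Otc, Arg1, Slc25a15 and Oat) and 4 had LF-C, LF-KO, HF-KO, HF-C (Ass1, Asl, Nags and Gls2). Glul alone had HF-C on top. HF-C was thus the lowest of the 4 groups for 9 genes. Neighbours in these orders mostly overlapped: LF-KO and HF-KO were separate for Asl, Nags and Gls2, HF-KO and HF-C were separate for Slc25a15, and every other neighbouring pair shared part of its range. Per length, by median FPKM, LF-C had the order Ass1 (2315), Arg1 (888), Cps1 (474), Glul (381), Asl (281), Oat (243), Gls2 (170.4), Otc (148), Slc25a15 (80.9) and Nags (24.8). In HF-C, Glul stood just after Ass1 (1154), above Arg1 (564) and Cps1 (280.3), and Asl (99.1) stood below Otc (107).

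The first comparison, HF-C against LF-C, asked what the HF diet did in control mice. Of the 10 genes, 6 fell (Otc, Ass1, Asl, Arg1, Gls2 and Slc25a15) and 0 rose, with DESeq2, limma-voom and an unadjusted p under 0.05 also giving 0 higher. Among all 13825 genes tested, 7.15% were called lower and 10.6% higher. In the same 6 genes every HF-C library lay below every LF-C library, where 8.60% of all genes did so. The median log2 difference of the 10 genes was -0.89, beside 0.025 over all genes. In edgeR 8 of the 10 had an unadjusted p under 0.05, as did 4738 of the 13825 genes tested. The 4 genes not called were Cps1, Nags, Glul and Oat. DESeq2, median-of-ratios factors and the fit of all 19 libraries each called 8 of the 10 lower, adding Cps1 and Nags, and leaving out LF-C-2 gave 7, adding Cps1. Scaling by library size alone left 3, but it also moved the median of all genes to 0.43.

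The authors' deposited table for this pair gave log2 fold changes of -0.97 for Cps1 and -0.97 for Nags with adjusted p of 0.0101 and 0.0156, so the authors' deposited table counted 8 of the 10 genes as lower. For Glul the authors' deposited table gave 0.26 with an adjusted p of 0.388.

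Hepatocyte markers moved with these genes. Of the 7 measured, 5 were lower in HF-C, with a median log2 difference of -1.26, and their summed level was 46286 to 60753 CPM in HF-C and 79218 to 211366 in LF-C, without overlap. The count of 5 was 3 without LF-C-1, HF-C-1, HF-C-2 or HF-C-5. Markers of macrophages (6 of 9 higher), of stellate cells and matrix (4 of 8) and of bile duct cells (4 of 6) were higher in HF-C. The summed macrophage markers ran from 615 to 937 CPM in HF-C and from 272 to 850.4 in LF-C, those of stellate cells and matrix from 495 to 855 and from 165 to 234, and those of bile duct cells from 156 to 511 and from 33.5 to 121. None of these markers was at 0 in every library of a group. The part of these shifts in the falls of the 10 genes was not tested, and in whole liver fewer hepatocytes and less RNA per hepatocyte cannot be told apart.

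**Figure D2:**
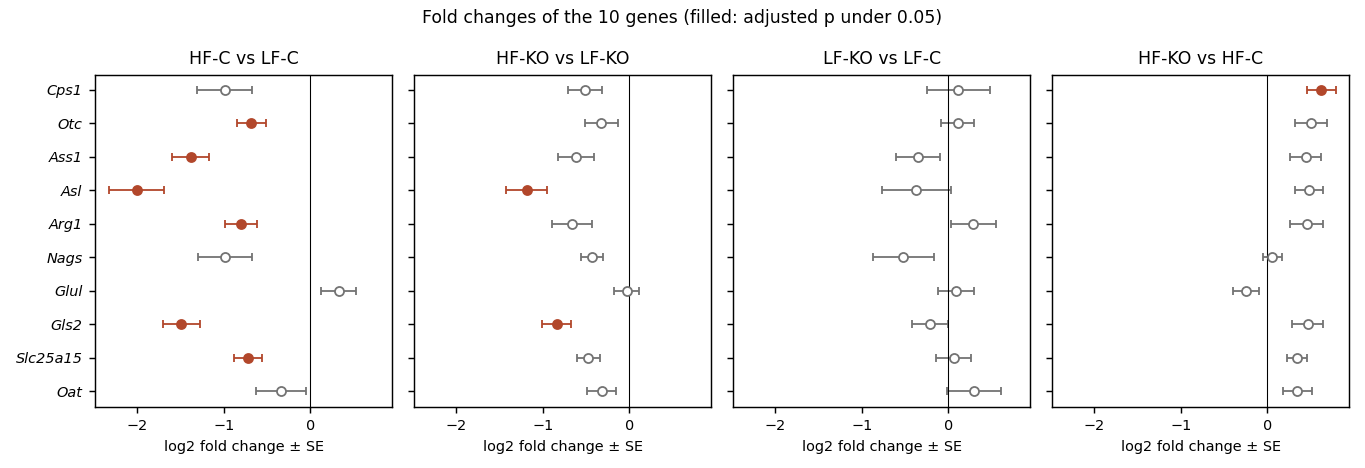
Log2 fold change ± SE (x axis) of the 10 genes (y axis) in the 4 pairwise comparisons, filled where edgeR's adjusted p is under 0.05. In HF-C vs LF-C 9 genes lie left of 0 and 6 are filled, in HF-KO vs LF-KO Asl and Gls2 are filled, in LF-KO vs LF-C none is filled, and in HF-KO vs HF-C only Cps1 is filled.

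The second comparison, HF-KO against LF-KO, put the same diet question to the KO-labelled mice. Asl and Gls2 fell, 2 of the 10 genes, where 1.06% of 13624 genes were called lower, 3.62% higher and 4.68% in either direction. All 10 differences were negative, from -1.18 for Asl to -0.03 for Glul, with a median of -0.49 beside 0.012 over all genes. In edgeR 7 of the 10 had an unadjusted p under 0.05, as did 2689 of the 13624 genes tested. The groups did not overlap for 4 genes (Asl, Gls2, Nags and Slc25a15), where 2.73% of all genes lay lower and 4.77% higher without overlap. Ass1 was lower by -0.62 ± 0.21 (adjusted p = 0.115), Arg1 by -0.67 ± 0.23 (0.126) and Cps1 by -0.51 ± 0.20 (0.171), none of them called. The authors' deposited table also listed Nags (log2 -0.43, adjusted p = 0.0165) and Slc25a15 (-0.46, 0.0113) past 0.05, and DESeq2 called 4 of the 10. Both calls were lost without LF-KO-3 and without LF-KO-4, though the values stayed negative and of similar size. Without LF-KO-3 Asl stood at -0.97 and Gls2 at -0.72 (adjusted p = 0.0864 for both), and without LF-KO-4 at -1.07 (0.0833) and -0.84 (0.0779). None of the 10 then passed, against 1 (Gls2) without HF-KO-6 and 5 without HF-KO-2. Without LF-KO-3 edgeR called no gene of 13840, where 1943 had an unadjusted p under 0.05, and without LF-KO-4 only 4 of 13842. Of the 9 macrophage markers 7 were higher in HF-KO, and of the 7 hepatocyte markers 2 were lower, and both counts were 0 without LF-KO-3 or without LF-KO-4. Their part in the result was not tested.

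The third comparison, LF-KO against LF-C, asked what the knockout label changed on the LF diet. None of the 10 genes was called by edgeR, DESeq2 or limma-voom, and none had an unadjusted p under 0.05. Among 13056 genes edgeR called 0, which is 0% of those tested, while 554 had an unadjusted p under 0.05 and DESeq2 called 5. Differences ran from -0.52 ± 0.35 for Nags to 0.30 ± 0.32 for Oat, with 6 positive and 4 negative, and all 10 genes overlapped between the groups, where 1.71% of all genes lay higher and 1.42% lower without overlap. The SEs were 0.19 to 0.40 on the log2 scale, and a p above the threshold does not show equal levels. Leaving out LF-C-2 turned Cps1 from 0.11 to -0.13 and Asl from -0.37 to 0.082.

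The fourth comparison, HF-KO against HF-C, asked what the knockout label changed on the HF diet. Cps1 rose by 0.62 ± 0.17 (adjusted p = 0.0334), 1 of the 10 genes, where 4.35% of 13915 genes were called higher, 5.43% lower and 9.77% in either direction. The share for the 10 genes is thus near the background. Cps1 was higher than the HF-C mean in 5 of 6 HF-KO libraries, and the exception was HF-KO-6. The call was lost without any single library among HF-C-1, HF-C-2, HF-C-5, HF-C-4, HF-KO-5, HF-KO-4, HF-KO-3 and HF-KO-1 (adjusted p from 0.0513 to 0.0869), with scaling by library size alone (0.0860) and in the fit of all 19 libraries (0.196). Without HF-C-3, 3 of the 10 genes were called.

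In this comparison 9 of the 10 differences were positive, with a median of 0.45 beside 0.019 over all genes. In edgeR 7 of the 10 had an unadjusted p under 0.05, as did 3944 of the 13915 genes tested. The uncalled values included Otc at 0.50 ± 0.18, Asl at 0.48 ± 0.16 (adjusted p = 0.0771), Gls2 at 0.47 ± 0.18 (0.109), Ass1 at 0.44 ± 0.18 (0.126) and Slc25a15 at 0.34 ± 0.12 (0.0838). Slc25a15 was the gene whose groups did not overlap, where 4.18% of all genes lay higher and 5.57% lower without overlap. Glul was the gene with a negative value, -0.25 ± 0.15 (adjusted p = 0.277). In the authors' deposited table Cps1 (log2 0.58, adjusted p = 0.00529), Asl (0.45, 0.0445) and Slc25a15 (0.33, 0.0389) passed 0.05. DESeq2 called 3 genes, and an offset for gene length gave 2. Hepatocyte markers went the same way, 3 of 7 higher with a median of 0.38 and a summed level of 62751 to 74458 CPM against 46286 to 60753 in HF-C. Macrophage (4 of 9), stellate and matrix (4 of 8) and bile duct markers (4 of 6) were lower in HF-KO. The count of higher hepatocyte markers was 1 without HF-C-1, HF-C-2, HF-C-5 or HF-KO-3, and that of lower bile duct markers was 2 without HF-KO-3, HF-C-5, HF-C-4 or HF-C-2. Their part in the values of the 10 genes was not tested. This comparison shares the HF-C libraries with the first.

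Whether the KO difference itself depended on the diet was tested over all 19 libraries as the KO difference on the HF diet less the KO difference on the LF diet. None of the 10 genes passed in edgeR, DESeq2 or limma-voom, where 0.202% of 14391 genes were called (0.125% of them higher, 0.0764% lower). Of the 14391 genes 1856 had an unadjusted p under 0.05 in edgeR, and of the 10 genes 2 did. These 2 were Ass1 (0.77 ± 0.31, edgeR adjusted p = 0.325) and Gls2 (0.65 ± 0.28, edgeR adjusted p = 0.344). The median over the 10 genes was 0.42, beside 0.00 over all genes, with 9 positive. The diet effect was therefore not shown to differ between genotypes for any of these genes, even though 6 were called in control mice and 2 in KO-labelled mice.

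Ratios of FPKM between 2 genes of the same library do not depend on how libraries are scaled. The 4 ratios were compared over the 4 pairs of groups by a two-sided exact permutation test of log2 ratios, 16 tests in all. None passed Benjamini-Hochberg adjustment. The smallest exact permutation p that the splits allow ran from 0.00433 (HF-KO vs HF-C) to 0.0286 (LF-KO vs LF-C). A single fully separated ratio could therefore not pass by itself among 16 tests. Glul over Cps1 sets glutamine synthesis beside the entry of the cycle. It was 1.14, 1.55, 0.618 and 0.761 in LF-C, 1.18, 1.04, 0.722 and 0.678 in LF-KO and 1.71, 2.41, 1.59, 3.85 and 2.03 in HF-C. HF-KO ranged from 0.919 to 2.21 with a median of 1.11. Every HF-C library lay above every LF-C library, a log2 difference of 1.20 with an exact permutation p of 0.0159, the smallest that 126 splits allow (adjusted p = 0.0610). HF-KO lay below HF-C by -0.87 (exact permutation p = 0.0173, adjusted p = 0.0610), with HF-KO-6 inside the HF-C range.

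Gls2 over Glul sets the release of ammonia from glutamine beside its capture. The ratio was 0.504, 0.573, 0.492 and 0.301 in LF-C, 0.307, 0.322, 0.506 and 0.352 in LF-KO and 0.155, 0.117, 0.195, 0.0672 and 0.134 in HF-C, while HF-KO ranged from 0.125 to 0.314 with a median of 0.216. Here too HF-C and LF-C did not overlap, and the log2 difference was -1.85 (exact permutation p = 0.0159, adjusted p = 0.0610). HF-KO was lower than LF-KO by -0.80 (exact permutation p = 0.0190, adjusted p = 0.0610) and higher than HF-C by 0.73 (exact permutation p = 0.0476, adjusted p = 0.127). Oat over Otc, the use of ornithine outside and inside the cycle, had medians of 1.64, 2.23, 2.45 and 2.42 in LF-C, LF-KO, HF-KO and HF-C, and its lowest exact permutation p was 0.159 (adjusted p = 0.317). Nags over Cps1 ranged from 0.0298 to 0.285 in LF-C, with LF-C-2 on top, and HF-KO lay below HF-C by -0.56 (exact permutation p = 0.0173, adjusted p = 0.0610).

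**Figure D3:**
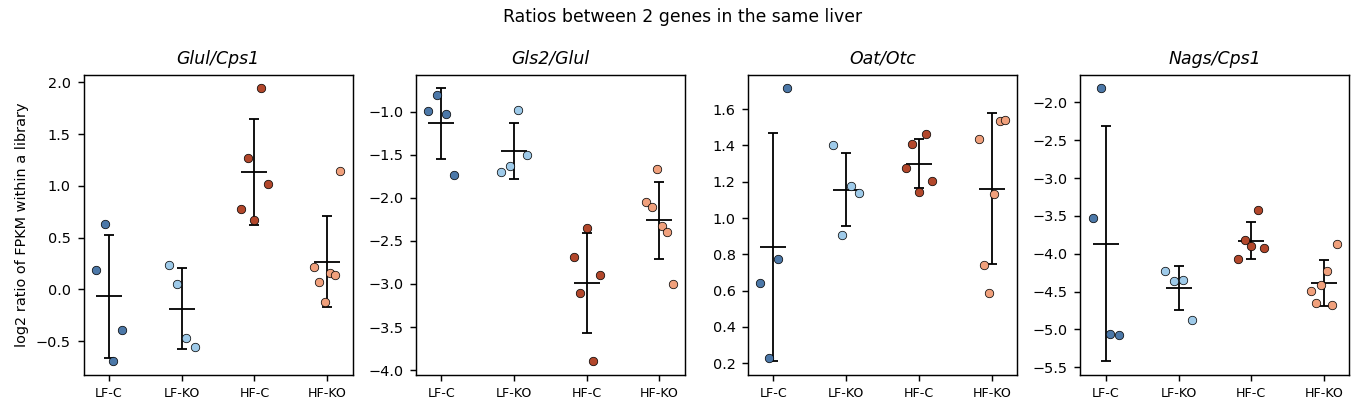
Log2 ratio of deposited FPKM within a library (y axis) for Glul/Cps1, Gls2/Glul, Oat/Otc and Nags/Cps1 in the 4 groups, with 1 point per liver and bars for mean ± SD. HF-C lies wholly above LF-C for Glul/Cps1 (means 1.13 and -0.07) and wholly below it for Gls2/Glul (means -2.99 and -1.14).

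Genes around the cycle were taken as lists. For HF-C against LF-C, the list counts here and below stand beside 7.15% of all genes called lower and 10.6% higher. The counts of higher feeding and draining enzymes, transporters and portal genes were near that share. Among enzymes and carriers that feed or drain the cycle, 6 of 16 tested were lower and 2 higher in HF-C against LF-C, with a median of -0.46. Got1, which makes aspartate for Ass1, fell from 324 ± 71.8 to 111 ± 23.8 CPM (log2 -1.55, adjusted p = 0.00128). Car5a, the mitochondrial carbonic anhydrase that supplies bicarbonate to Cps1, fell from 64.1 ± 12.0 to 27.5 ± 4.22 (-1.22, 0.00164), and Prodh, which starts proline breakdown, fell from 329 ± 96.8 to 125 ± 22.2 (-1.39, 0.00221). Aldh18a1, which makes the proline and ornithine precursor pyrroline carboxylate, rose from 1.41 ± 0.24 to 4.16 ± 0.87 CPM (1.55, 0.00257).

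Of 17 tested enzymes of amino acid breakdown 10 were lower in HF-C and 0 higher, with a median of -0.99. DESeq2 gave 13 lower and 0 higher, and over the alternatives the lower count ran from 2 to 13. Histidine breakdown was among them: Hal, which frees ammonia from histidine, fell from 463 ± 109 to 142 ± 57.4 CPM (log2 -1.71, adjusted p = 0.00293), Uroc1 by 0.87 (0.00409) and Ftcd by 1.03 (0.00515). Hpd of tyrosine breakdown fell from 3868 ± 2423 to 990.5 ± 183 CPM (-1.96, 0.00381), and by 1.47 without LF-C-2. Of 11 transporters 3 were lower and 1 higher, with a median of -0.46. Slc38a3, a glutamine carrier of hepatocytes, fell from 1958 ± 459.9 to 811 ± 80.4 CPM (-1.27, 0.00176), Slc43a1, a carrier of branched and aromatic amino acids, fell by 2.62 (0.000225) and Slc6a12, a betaine carrier, by 1.20 (0.00487). Slc7a8, a carrier of neutral amino acids, rose from 6.13 ± 2.04 to 22.6 ± 3.07 CPM (1.88, 0.000858). Without LF-C-2 the count of lower transporters was 8, and with an offset for gene length 7.

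Of 14 regulators known to act on the cycle's genes 5 were lower and 0 higher in HF-C, with a median of -0.33. Creb3l3, a factor of the fasted liver, was lower by -1.14 (adjusted p = 0.0160), the glucagon receptor Gcgr by -0.88 (0.0372), Cebpa by -0.69 (0.0370) and Hnf4a by -0.49 (0.0393). These calls were close to the threshold. Creb3l3 lost its call without HF-C-5, just above the threshold. The count of 5 was 9 without LF-C-2, 3 without LF-C-4, 2 without LF-C-1 or HF-C-3, 1 without HF-C-4, HF-C-2 or HF-C-1, and 0 if HF-C-5 was left out. Hnf4a was also not called with scaling by library size alone (-0.07, adjusted p = 0.773).

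Zonal markers were counted on both sides of the lobule, and the sides were not tested against each other. Near the central vein 5 of 13 were lower and 0 higher in HF-C, among them Cyp1a2, which metabolises caffeine (348 ± 57.1 to 100.2 ± 23.4 CPM, log2 -1.80, adjusted p = 0.000506), Gulo of vitamin C synthesis (-0.89, 0.0109), the bile acid enzyme Cyp27a1 (-0.76, 0.0181) and Cyp2e1, which oxidises ethanol (-0.88, 0.0216). Near the portal vein 6 of 12 were lower and 1 higher, with Etnppl, a phospholyase of ethanolamine phosphate, at -1.98 (0.000583), the antibody carrier Pigr at -1.05 (0.00363), Fbp1 of glucose synthesis at -0.86 (0.00749) and the cell adhesion gene Cdh1 at 1.27 (0.0263). The medians were -0.62 and -0.68. Without LF-C-1, HF-C-1 or HF-C-5 the first count was 2 and without HF-C-2 it was 3, and the count of lower portal genes was 3 without any single HF-C library. Cdh1 was not called without LF-C-1, LF-C-4, HF-C-5, HF-C-4, HF-C-2 or HF-C-1.

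In HF-KO against HF-C, 12 of the 83 genes tested from the 6 lists were called, where 9.77% of all genes were. They included 2 higher and 1 lower of the feeding and draining enzymes, 1 higher of the transporters, 2 higher of the breakdown enzymes and 1 higher of the regulators. Car5a rose from 27.5 ± 4.22 to 44.8 ± 4.30 CPM (log2 0.74, adjusted p = 0.00352), Slc43a1 by 0.97 (0.0106), Agmat, which hydrolyses agmatine to urea, by 0.54 (0.0103), Hpd by 0.62 (0.0221) and the glucocorticoid receptor gene Nr3c1 by 0.60 (0.0112). Asns, asparagine synthetase, was lower at 0.578 ± 0.15 against 1.14 ± 0.30 CPM (-0.94, adjusted p = 0.0476), a call lost without 9 of the 11 libraries, each left out singly. Cyp1a2 (1.33, 0.00416) and Etnppl (1.18, 0.00642) rose, Lect2, a factor secreted by hepatocytes (0.71, 0.0462), was called in 3 of the 11 fits that left out 1 library, and Pck1 of glucose synthesis (-0.85, 0.0274) in 6. Cdh1 (-0.97, 0.0385) was called in 5. Of these genes Car5a, Cyp1a2 and Etnppl were also called in the fit of all 19 libraries, while Slc43a1, Agmat, Hpd, Nr3c1 and Pck1 were not. Hpd was also not called without HF-C-1, HF-C-4, HF-C-5 or HF-KO-3.

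In HF-KO against LF-KO, 5 of 17 breakdown enzymes were lower, with Tat (log2 -0.84, adjusted p = 0.0340), Sds (-1.12, 0.0408) and Agxt (-0.74, 0.0410) among them. Over all genes 1.06% were called lower and 3.62% higher in this comparison. Got1 (-1.60, 0.0255) and the alanine aminotransferase Gpt (-0.65, 0.0353) were lower and Aldh18a1 (1.40, 0.0246) higher. The carriers Slc7a2 of cationic amino acids (-0.71, 0.0179) and Slc38a2 of neutral amino acids (-0.66, 0.0307) were lower, as were Pck1 (-1.80, 0.0120), Etnppl (-1.06, 0.0159), Fbp1 (-0.51, 0.0432) and Cyp2e1 (-0.78, 0.0346). Of the 14 regulators edgeR called 0, DESeq2 called 3 lower, and 4 lower ones had an unadjusted p under 0.05. Without LF-KO-3 or without LF-KO-4 these genes kept their direction but were not called, with adjusted p from 0.0574 to 0.153. Pck1 then stood at -1.73 and -1.59 and Etnppl at -1.06 and -0.97, while Sds without LF-KO-3 stood at -0.69. Leaving out other libraries also cost calls. Of the 10 fits without 1 library, Fbp1 lost its call in 9, Agxt and Cyp2e1 in 8, and Gpt and Sds in 7. Tat and Aldh18a1 lost it in 5, Slc38a2 in 4, Got1 in 3, and Slc7a2, Pck1 and Etnppl in 2. Tat, Gpt, Agxt, Slc38a2, Slc7a2 and Fbp1 were also not called in the fit of all 19 libraries. In LF-KO against LF-C none of the 82 genes tested from these 6 lists was called by edgeR or DESeq2, and 1 had an unadjusted p under 0.05.

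**Figure D4:**
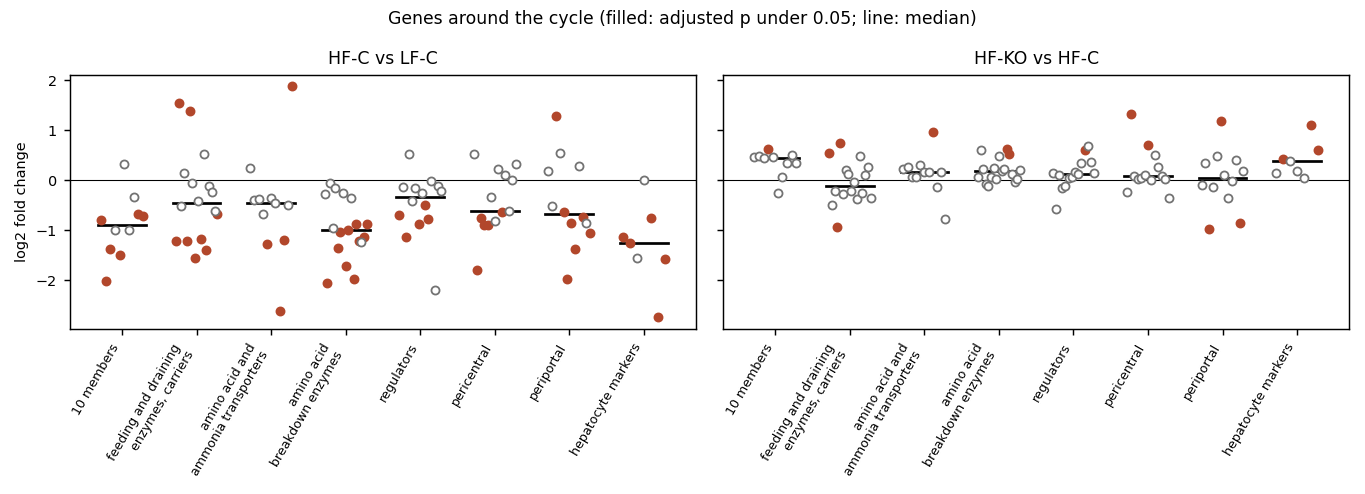
Log2 fold changes (y axis) of the 10 genes and of 7 lists (x axis) in HF-C vs LF-C (left) and HF-KO vs HF-C (right), with 1 point per gene tested, filled where edgeR's adjusted p is under 0.05, and a line at the median. In HF-C vs LF-C every median lies below 0, from -0.33 for regulators to -1.26 for hepatocyte markers, and in HF-KO vs HF-C the median of the 10 genes is 0.45.

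Across the 19 libraries, the members' levels varied together to different degrees, as a description in which the libraries share group differences in diet and LF-C-2. Pearson's r of log2 CPM was 0.94 between Ass1 and Asl, 0.93 between Ass1 and Gls2, and 0.90 between Otc and Arg1. Cps1 and Nags, enzyme and activator, had r of 0.06 with LF-C-2 included. That library held the highest Nags of all (168 CPM) and the lowest Cps1 of LF-C (1206 CPM). The r of this pair without LF-C-2 was not computed. Glul had a negative r with every other member except Oat (0.30), from -0.24 with Cps1 to -0.63 with Ass1. Among 10018 genes outside the set, the gene most like each member by Pearson's r over the 19 libraries was Fastkd1 for Cps1 (0.91), Rgn for Otc (0.94), Ropn1l for Ass1 (0.95), Serpina1b for Asl (0.97), Cth for Arg1 (0.92), Naprt1 for Nags (0.98), Slc22a3 for Glul (0.81), Hal for Gls2 (0.97), Etnppl for Slc25a15 (0.93) and Wdr5 for Oat (0.83). Without LF-C-2, over 18 libraries, these values were 0.76 for Glul with Slc22a3, 0.80 for Oat with Wdr5 and 0.92 to 0.96 for the other 8 pairs.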

How the data were processed

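Whole-liver RNA of 19 mice was sequenced, and the authors deposited 4 tables, 1 for each pair of groups. The deposited read counts per gene and library are whole numbers, which per the submitters' processing notes came with HTSeq 0.6.1 after mapping with STAR 2.5, per the labels' protocols. The libraries carry no strand. The labels and headers name no genome build. Positions are as deposited, and 6 of the 10 match GENCODE M21 (GRCm38) exactly. The deposited FPKM values are counts per gene length and library total. The deposited log2 fold changes and deposited p-values are the authors' own, and the deposited mean signal per group, which the file headers call a read count, was not used in tests.

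Counts were joined over the tables by gene identifier, after the 38 repeated library columns were found identical. Tests used edgeR 4.0.16 in R 4.3.3 (TMM, filterByExpr, quasi-likelihood), each pair on its own libraries and the difference of the KO effect on all 19, with Benjamini-Hochberg adjustment over all genes. DESeq2 1.42.0, limma 3.58.1 (voom), other scalings, no filter, a loess offset for gene length, a replicate block and leaving out each library were the alternatives. The fits were also run on simulated counts with the same spread for all genes and no gene length trend or outlying library. That run does not vouch for the calls here. Replicate numbers did not pair the libraries, and all replicate pairs differed by more than counting error (mean chi-square per gene at least 7.13). The labels describe each library as a mouse and give each library its own ID, and p-values measure the spread between these libraries.

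The 10 genes, the lists of 137 genes, the motifs and the tests were chosen with earlier results of these data known. Of the 137 listed genes 136 were found. Besides the 10 genes, up to 4 called genes of each list with the smallest p are named per comparison, except for an item that is not reported here. FPKM ratios were tested without a pseudocount by exact permutation, two-sided. Depth was 11437875 to 20711869 counted fragments per library.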

Additional observations from a re-analysis of the deposited data

Results flagged for a closer look

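Of 56 groups of levels and ratios examined, 3 held a library far from the others of its group, by the gap to its nearest neighbour as a share of the whole range, and chance flags about 1 in 20. In HF-KO, Cps1 was lowest in HF-KO-6 at 1342 CPM, where the other 5 libraries held 2032 CPM or more (gap over range 0.689). The ratio of Glul to Cps1 was highest in the same library at 2.21 (gap over range 0.732), where the other 5 lay at 1.16 or less. Both values share the Cps1 count of that library. In LF-C, Arg1 was lowest in LF-C-2 at 932 CPM, where the other 3 held 1381 CPM or more (gap over range 0.845). LF-C-2 is the library that stood apart in its TMM factor, the share of its 10 most abundant genes and its mitochondrial share. The part of these library features in the values was not tested.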

How the results depend on the processing

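Counts among the 10 genes moved by over 1.5 times in these cases, and the cause was not tested. Lower in HF-C than in LF-C, 6 in the report, were 3 with scaling by library size alone and 3 with the replicate block, and 5 to 7 when 1 library was left out. Lower in HF-KO than in LF-KO, 2 in the report, were 4 by DESeq2, 0 with the replicate block, 0 with the replicate block and gene length offset, and 0 to 5 when 1 library was left out. Higher in HF-KO than in HF-C, 1 in the report, were 0 with library size alone, 3 by DESeq2, 0 with all 19 libraries in 1 fit, 2 with the gene length offset, 3 with the replicate block, 4 with the block and offset, and 0 to 3 when 1 library was left out. Among the lists, the replicate block left 2 of 10 breakdown enzymes, 1 of 5 hepatocyte markers and 1 of 4 bile duct markers called in HF-C vs LF-C, and the fit of all 19 libraries left 0 of 3 hepatocyte and 1 of 4 macrophage markers in HF-KO vs HF-C.

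The numbers did not pair the libraries: same-numbered libraries correlated at -0.183 to 0.061, 0.065 to 0.18, -0.148 to 0.182 and -0.094 to 0.093 in the 4 comparisons in the order of the report, and 1 of 8, 3 of 8, 3 of 8 and 2 of 10 libraries correlated best with their own number.

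Signs turned only for values that were not called. With library size alone they were Oat in HF-C vs LF-C (0.00932), Glul in HF-KO vs LF-KO (0.16), Nags in HF-KO vs HF-C (-0.065), and Arg1 (-0.076) and Oat (-0.14) in the difference of the KO effect. Oat there was also -0.092 in limma-voom, -0.21 with the replicate block and -0.22 with the block and offset. The log2 ratio of Glul to Cps1 in LF-KO vs LF-C was 0.054 with the length trend removed, and that of Oat to Otc in HF-KO vs LF-KO was -0.18 with the replicate block. Leaving out 1 library gave ranges through 0 for Oat in HF-C vs LF-C (-0.55 to 0.048), Glul in HF-KO vs LF-KO (-0.0895 to 0.036), and Cps1 (-0.13 to 0.36), Asl (-0.58 to 0.082), Glul (-0.0185 to 0.22) and Slc25a15 (-0.0245 to 0.17) in LF-KO vs LF-C. In the difference of the KO effect it did so for Arg1 (-0.046 to 0.34), Oat (-0.37 to 0.25) and Pparg (-0.083 to 0.62). Among log2 ratios it did so for Glul to Cps1 in LF-KO vs LF-C (-0.33 to 0.11), Oat to Otc in HF-KO vs LF-KO (-0.078 to 0.12), and Nags to Cps1 in HF-C vs LF-C (-0.36 to 0.73), HF-KO vs LF-KO (-0.076 to 0.14) and LF-KO vs LF-C (-0.99 to 0.10).

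Over all genes, library size alone moved the median log2 difference to 0.43 in HF-C vs LF-C, 0.19 in HF-KO vs LF-KO, 0.10 in LF-KO vs LF-C and -0.11 in HF-KO vs HF-C, and the higher share of calls to 89.3% (from 59.8%), 94.9% (from 77.4%) and 25.3% (from 44.5%) in the comparisons that had calls. In HF-C vs LF-C, where 1469 genes were higher and 988 lower, DESeq2 gave 1852 and 2018, the gene length offset 1591 and 1625, the fit of all 19 libraries 1909 and 1883, and the replicate block 517 and 149. In HF-KO vs LF-KO, where 144 genes were lower, DESeq2 gave 447 lower and the block 24. In HF-KO vs HF-C, with 605 and 755, DESeq2 gave 1055 and 1217, the fit of all 19 libraries 197 and 334, the block 301 and 480.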

Other observations

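Markers of other cells were counted beside shares over all genes of 7.15% lower and 10.6% higher in HF-C against LF-C, and 4.35% higher in HF-KO against HF-C. For HF-KO against LF-KO the shares were 1.06% lower and 3.62% higher. Of 6 sinusoidal endothelial markers 1 was lower in HF-C than in LF-C and 1 higher in HF-KO than in LF-KO, and their summed level was 174 to 369 CPM over the 4 groups. The count in HF-KO against LF-KO was 0 to 2 when 1 library was left out. Of 5 lymphocyte markers 1 was higher in HF-C than in LF-C, with a summed level of 3.01 to 11.5 CPM over all libraries. Of 4 erythroid markers 2 were lower in HF-C than in LF-C, with sums of 135 to 197 CPM in HF-C and 240.1 to 1467 in LF-C, and 3 were higher in HF-KO than in HF-C, with sums of 176 to 402 in HF-KO. Leaving out 1 library gave 1 to 3 in the first case, with 1 without any single HF-C library, and 1 to 4 in the second, with 1 without any single HF-C library, HF-KO-3 or HF-KO-6. When the KO effects on both diets were compared, 0.125% of all genes were called higher. Of the 4 erythroid markers 1 was called, Alas2, which starts haem synthesis in red cell precursors (log2 1.42, edgeR adjusted p = 0.0477). That count was 0 with scaling by library size alone, and 0 to 1 when 1 library was left out. Of 5 genes of fat, kidney and pancreas 1 passed the filter on low counts, Cela1, a pancreatic elastase, which stood at 13.2 ± 1.18 CPM in HF-C and 53.8 ± 41.2 in LF-C (log2 -2.03, edgeR adjusted p = 0.00561) and was also lower in HF-KO than in LF-KO (-0.99, edgeR adjusted p = 0.0441). The call in HF-KO against LF-KO was lost without LF-KO-3, where edgeR called no gene. The kidney marker Umod was at 0 in every library of LF-C, LF-KO and HF-KO, and the adipocyte marker Lep was at 0 in every library of LF-KO and HF-KO.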
